A study of Mus musculus with 4 samples.

Results

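Accessible chromatin between genes was examined in bone marrow-derived macrophages (BMDMs) of wild-type mice, with the regions chosen so that a peak was present in every library and the nearest transcription start site (TSS) lay no farther than 50 kb away. Of 60710 regions obtained by merging the ATAC-seq peaks of 4 libraries, 25442 had a peak in all 4, and 5078 of these were annotated as intergenic with a TSS within 50 kb. These 5078 members made up 8.36% of all merged regions. A region took the annotation, distance and gene of its highest peak, so that peak calls and heights chose the members. Intergenic regions within 50 kb numbered 13930 when a peak in any library was enough. BMDMs were differentiated from bone marrow of 8- to 12-week-old wild-type mice for 6 days with L929 supernatant, which supplies the macrophage growth factor MCSF. Control cells received no further agent (n = 2 libraries), and IL-4 cells received 20 ng/ml IL-4 for 1 h (n = 2 libraries). The methods describe 2 biological replicates without saying whether they came from separate animals, so that p-values measure the spread between these libraries. Because the choice of members used peak calls in every library, a region that IL-4 opened from nothing or closed completely could not be a member, and no count of members says anything about such regions.

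Intergenic accessible regions include enhancers, stretches of DNA that bind transcription factors and act on genes at a distance. In macrophages the lineage factors PU.1, C/EBP and RUNX hold many of them accessible, and AP-1 and IRF factors act at regions that respond to inflammatory signals. IL-4 binds its receptor, activates Janus kinases and leads to phosphorylation of STAT6, which enters the nucleus and binds DNA in which TTC and GAA are separated by 4 bases. ATAC-seq reads out accessibility through the cuts that the Tn5 transposase makes in open DNA. Peak height stands here for the deposited peak score, taken to be the peak's −log10 q-value.

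The sequences that carry the main comparison are shown first, all from the reference strand of the mm10 assembly. The Sptbn1 and Stxbp5 regions were the members that passed the test for higher peak height after IL-4, and the central 200 bp of both are given, with the STAT6 motif (TTCNNNNGAA) in capitals. The Sptbn1 sequence held it and the Stxbp5 sequence did not.
Sptbn1, chr11:30224703-30224902: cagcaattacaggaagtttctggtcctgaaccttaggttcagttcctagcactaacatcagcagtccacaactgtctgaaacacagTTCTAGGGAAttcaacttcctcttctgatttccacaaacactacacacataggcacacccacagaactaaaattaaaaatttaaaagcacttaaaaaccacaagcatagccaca
Stxbp5, chr10:9908136-9908335: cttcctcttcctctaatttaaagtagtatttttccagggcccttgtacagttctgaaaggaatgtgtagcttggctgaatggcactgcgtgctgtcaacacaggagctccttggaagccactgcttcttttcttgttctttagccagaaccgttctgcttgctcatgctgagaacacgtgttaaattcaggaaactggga

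Further members with the STAT6 motif and large positive differences are shown with 20 bases on either side of the motif, which is in capitals. They differ in the 4 bases between TTC and GAA.
Tlr4, chr4:66852127-66852176: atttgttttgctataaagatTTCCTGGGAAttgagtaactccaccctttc
Tiam1, chr16:89986120-89986169: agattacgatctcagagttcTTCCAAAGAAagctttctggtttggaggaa
Nabp1, chr1:51493934-51493983: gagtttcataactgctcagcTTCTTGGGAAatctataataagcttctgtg
Rsl24d1, chr9:73127568-73127617: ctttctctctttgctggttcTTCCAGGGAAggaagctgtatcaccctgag
Kynu, chr2:43545889-43545938: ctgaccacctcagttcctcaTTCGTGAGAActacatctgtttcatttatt
Pde4b, nearer region, chr4:102608309-102608358: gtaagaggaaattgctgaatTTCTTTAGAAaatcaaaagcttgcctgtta
Pde4b, farther region, chr4:102624253-102624302: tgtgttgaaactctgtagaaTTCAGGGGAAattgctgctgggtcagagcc
Zeb2, chr2:45126567-45126616: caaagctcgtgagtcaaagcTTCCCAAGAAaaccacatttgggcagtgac
Tnfrsf1b, chr4:145254541-145254590: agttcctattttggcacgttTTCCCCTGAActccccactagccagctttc

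The AP-1 motif (TGAGTCA, or TGACTCA on the other strand) was found in 1279 members, of which 504 had a positive difference. The Zeb2 stretch above, from a member with a positive difference, also holds it, in lower case. In the stretches below the AP-1 motif is in capitals. They come from members, picked with their values known, that lay lower in both IL-4 libraries than in either control library.
Susd1, chr4:59455151-59455197: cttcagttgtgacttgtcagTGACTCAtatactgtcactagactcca
Pigm, chr1:172423576-172423622: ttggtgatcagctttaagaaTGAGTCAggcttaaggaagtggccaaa
Kif13a, chr13:46959305-46959351: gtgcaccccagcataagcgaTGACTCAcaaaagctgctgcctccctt
9130221F21Rik, chr6:72056734-72056780: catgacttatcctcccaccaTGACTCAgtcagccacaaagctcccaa
Dio1, chr4:107285705-107285751: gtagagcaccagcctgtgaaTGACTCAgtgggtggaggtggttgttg
Rxrg, chr1:167551781-167551827: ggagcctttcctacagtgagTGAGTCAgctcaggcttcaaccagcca

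The libraries contained 45250 and 41885 peaks in control replicates 1 and 2 and 41978 and 39462 peaks in IL-4 replicates 1 and 2. Sequencing depth is unknown because the files hold no read counts, and peak height grows with depth. The median height of the members was 11.8 in control replicate 1, 10.1 in control replicate 2, 10.2 in IL-4 replicate 1 and 7.95 in IL-4 replicate 2. IL-4 replicate 2 was therefore the lowest library, and control replicate 2 and IL-4 replicate 1 were nearly level. The mean of the median log2 heights was 3.45 ± 0.158 (SD, n = 2) in control and 3.17 ± 0.2502 (SD, n = 2) after IL-4, a difference of −0.29 on the log2 scale that an exact permutation test over libraries did not separate from 0 (two-sided p = 0.667, with 0.333 as the smallest p of this design). Among marker genes of macrophages, Cd68, Fcgr1, Lyz2 and Cd14 had a promoter region with a peak in all 4 libraries, whereas Adgre1, Csf1r, Itgam, Mertk and Spi1 did not. None of the markers of B cells, T cells, epithelial, stromal and endothelial cells that were looked up had one (0 of 14), and S100a8, a granulocyte marker, did.

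Annotation and distance chose the members, so their position relative to the TSS in part restates that choice. Upstream members numbered 3809 (75.01%) and downstream members 1269, and the median distance to the TSS was 13788 bp upstream and 23671 bp downstream. Of the shared intronic regions within 50 kb 14.7% lay upstream, and of the shared intergenic regions beyond 50 kb 54.6%. The number of members per kb fell from 186 at 1 to 5 kb from the TSS to 133.8 at 10 to 20 kb and 52.3 at 40 to 50 kb. Upstream members formed 94.0% of those within 5 kb and 61.6% of those beyond 40 kb. The annotation keeps promoters and gene bodies apart from intergenic sequence, and the nearest member lay 1004 bp away and downstream members began at 1992 bp. Peak height hardly varied with distance, with medians in control replicate 1 from 10.8 at 1 to 5 kb to 12.2 at 30 to 40 kb.

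**Figure D1:**
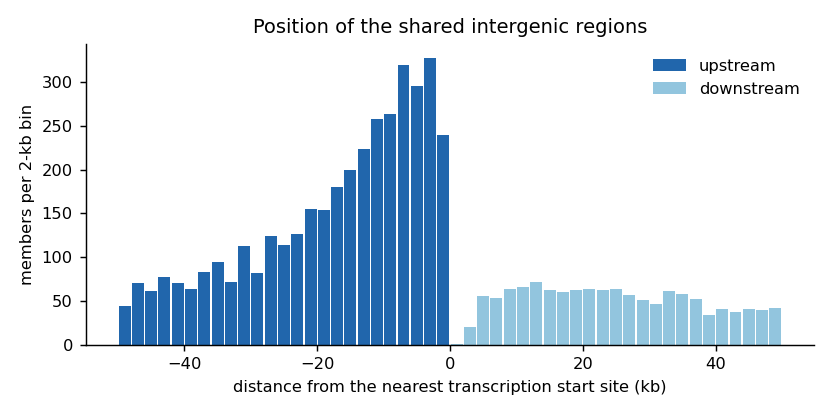
Number of members in bins of 2 kb (y axis) against the distance from the nearest TSS in kb (x axis), with upstream members to the left in dark blue and downstream members to the right in light blue. The 3809 upstream members pile up towards the TSS, and the 1269 downstream members are spread almost evenly.

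The choice of 50 kb cut through a continuous range. The 3 members just inside it were assigned to Apbb1ip at 49997 bp (heights 16.78 and 23.7 in control, 17.1 and 15.85 after IL-4), Mir760 at 49992 bp (11.78 and 8.04, 10.03 and 6.46) and Foxp1 at 49986 bp (26.07 and 22.42, 34.95 and 17.68). The 3 regions just outside were assigned to Fos at 50006 bp (5.85 and 5.6, 3.76 and 3.78), Mgat4a at 50010 bp (7.34 and 5.46, 13.68 and 7.39) and Pole4 at 50011 bp (12.19 and 7.46, 9.33 and 6.43). Heights on either side of the limit overlapped.

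The members had a median length of 297 bp (111 to 1436 bp) and a median GC content of 50%, against 424 bp and 65.5% for the 7920 shared promoter regions. They were assigned to 3448 genes, of which 2386 had a single member. For 2271 members (44.7%) the promoter of the assigned gene was itself a region with a peak in all 4 libraries. CpG islands outside promoters accounted for 315 members. Repeats accounted for 1036 members (20.4%) by the annotation, and among these the LTR retrotransposons were the main class with 523 members (10.3%), compared to 6.28% of the 6370 shared intronic regions within 50 kb and 10.4% of the 2783 shared intergenic regions beyond 50 kb. The repeat families differed in their motifs. The PU.1 motif (GAGGAAGT) was found in 28.5% of the 288 members in ERVL-MaLR elements, as compared to 12.1% of all members, while the STAT6 motif was found in 2.43% of these 288 and in 11.0% of the 154 members in L1 elements. The AP-1 motif was found in 44.8% of the 87 members in ERVL elements and in 25.2% of all members. The shares are descriptions of related copies, which do not vary independently.

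The highest members were mostly simple repeats. Of the 8 members that were highest in their lowest library, 5 were annotated as such. At the first of them, 4676 bp downstream of the Tcstv3 TSS, heights were 86.11 and 83.49 in control and 100.89 and 82.88 after IL-4. The groups overlapped there. In all 63 members (1.24%) were simple repeats, with median heights of 13.94 and 15.28 in control and 13.67 and 10.41 after IL-4. Reads from such repeats can align to more than 1 place, and the handling of such reads is not given in the sources used here, so their heights are uncertain. Among the others of these 8 were members assigned to Tcp10c (also a simple repeat, heights 78.88 to 96.78), Msantd4 (53.55 to 58.48), 8030442B05Rik (44.24 to 58.24) and Gm16897 (42.23 to 63.92). In none of these 8 did the heights of the groups separate past the limma threshold, the adjusted p lying between 0.63 and 1.

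Members were compared with like regions inside introns and with regions far from genes. Within each library the median log2 height of members exceeded that of the 6370 shared intronic regions within 50 kb by 0.03 on average (SD 0.00740 over 4 libraries), and this held in 4 of 4 libraries (exact sign-flip permutation test, two-sided p = 0.125, the smallest possible). It was lower than that of the 2783 shared intergenic regions beyond 50 kb by a mean difference of −0.08 (SD 0.0602), again in 4 of 4 libraries (exact sign-flip permutation p = 0.125, the smallest possible). In control replicate 1 the medians were 11.84 for members, 11.57 for the intronic and 12.11 for the distant intergenic regions, and in IL-4 replicate 2 they were 7.95, 7.86 and 8.78. Shared promoter regions were higher, with medians of 14.43 and 10.79 in these libraries. All classes were chosen by a peak in every library, and the design with 4 libraries cannot reach a p of 0.05.

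**Figure D2:**
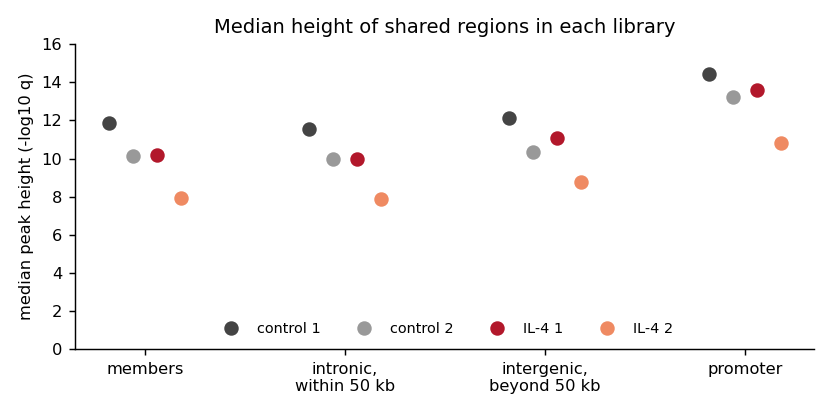
Median peak height (y axis, −log10 q) of 4 classes of shared regions (x axis), with 1 point per library in grey for control and red for IL-4. Members ranged from 7.95 to 11.84 and lay next to the intronic regions, while promoters lay between 10.79 and 14.43.

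The question of the comparison between the groups was whether 1 h of IL-4 changed the accessibility of these regions. Higher peaks after IL-4 were found at the Sptbn1 and Stxbp5 regions, and no member passed the limma test in the lower direction. The Sptbn1 region (chr11:30224616-30224991) lay 5029 bp upstream of the TSS of the gene for βII-spectrin, a part of the membrane cytoskeleton, in a B3A SINE repeat. Its heights were 10.44 and 8.97 in control and 33.53 and 23.7 after IL-4. Both IL-4 libraries were above both control libraries, and the log2 difference after quantile normalisation was 1.73 (SE 0.3297, limma adjusted p = 0.03002). The Stxbp5 region (chr10:9908076-9908396) lay 7208 bp upstream of the TSS of the gene for tomosyn, which binds the proteins that fuse vesicles with membranes. Its heights were 3.79 and 3.46 in control and 19.67 and 16.73 after IL-4. Here, too, the groups did not overlap, and the log2 difference was 2.57 (SE 0.494, limma adjusted p = 0.03002). Neither gene had a promoter region with a peak in all 4 libraries.

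The 2 higher members were 0.0394% of 5078, beside 0.0157% of all 25442 shared regions, and the 0 lower members stood beside 0.00786% of all. With unadjusted limma p under 0.05, 195 members (3.84%) were higher and 276 (5.44%) lower, against 4.12% and 4.15% of all shared regions. The median log2 difference was −0.04 over members and −0.00065 over all shared regions. By deposited heights alone, both IL-4 libraries lay above both controls at 418 members (8.23%, against 8.83% of all shared regions) and below both controls at 1609 (31.7%, against 29.3%). Those heights are not normalised, and the medians over all shared regions were 12.52 and 11.01 in control and 11.14 and 8.86 after IL-4. The Sptbn1 and Stxbp5 calls were lost without IL-4 replicate 1 (limma adjusted p = 0.558 for both) or IL-4 replicate 2 (limma adjusted p = 0.735 for both) and with a variance prior that did not follow height, while 5 members were higher without control replicate 1 and 4 without control replicate 2. The excess of lower over higher members at unadjusted p turned round without control replicate 1, with 213 higher and 180 lower.

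The members with the largest positive differences after Stxbp5 were near Tiam1, Tlr4, Nabp1, Enah and Cblb, and none of these passed the threshold. At Tiam1, which encodes an activator of the GTPase Rac, the region 11470 bp upstream had heights of 4.44 and 3.3 in control and 19.95 and 11.27 after IL-4 (log2 difference 2.20, limma adjusted p = 0.126). At Tlr4, the receptor for bacterial lipopolysaccharide, the region 24319 bp downstream (chr4:66851979-66852321) had 6.5 and 4.53 in control and 26.26 and 13.33 after IL-4 (2.003, limma adjusted p = 0.0945). The groups were apart in both cases, and at the other regions of this paragraph, by the rule that chose them. At Nabp1, which encodes a single-stranded DNA-binding protein, heights were 2.44 and 3.52 against 8.58 and 10.64 (1.96), at Enah, a regulator of actin filaments, 8.89 and 2.66 against 18.97 and 14.31 (1.94), and at Cblb, a ubiquitin ligase that restrains immune receptor signalling, 5.65 and 4.95 against 19.95 and 14.6 (1.90), with limma adjusted p between 0.151 and 0.234. The STAT6 motif was present in the central 200 bp at Tiam1, Tlr4 and Nabp1 and absent at Enah and Cblb.

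The largest negative differences were seen near 3110002H16Rik, Acot13, Susd1, Icosl, A530013C23Rik and Parvg, and none passed the threshold. The region 9948 bp upstream of 3110002H16Rik, in an ORR1C2 element, had heights of 17.54 and 17.26 in control and 1.81 and 3.99 after IL-4 (log2 difference −2.49, SE 0.538, limma adjusted p = 0.0749). At Acot13, an acyl-CoA thioesterase gene, heights were 16.16 and 21.41 in control and 6.5 and 2.76 after IL-4 (−1.89), and at Susd1 they were 18.39 and 9.56 against 5.52 and 1.47 (−1.85). At Icosl, which encodes the ligand of the T cell costimulator ICOS, the region 26936 bp downstream had 12.76 and 12.19 in control and 5.34 and 1.35 after IL-4 (−1.85). The IL-4 libraries lay below the controls at all of these by the rule that chose them. The last 2 differences were −1.67 at A530013C23Rik and −1.66 at Parvg, which encodes a protein of cell adhesions, and the limma adjusted p from Acot13 to Parvg ran from 0.173 to 0.361. The STAT6 motif was in none of these 6 regions and the AP-1 motif was in the central 200 bp of 1 of them, near Susd1.

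**Figure D3:**
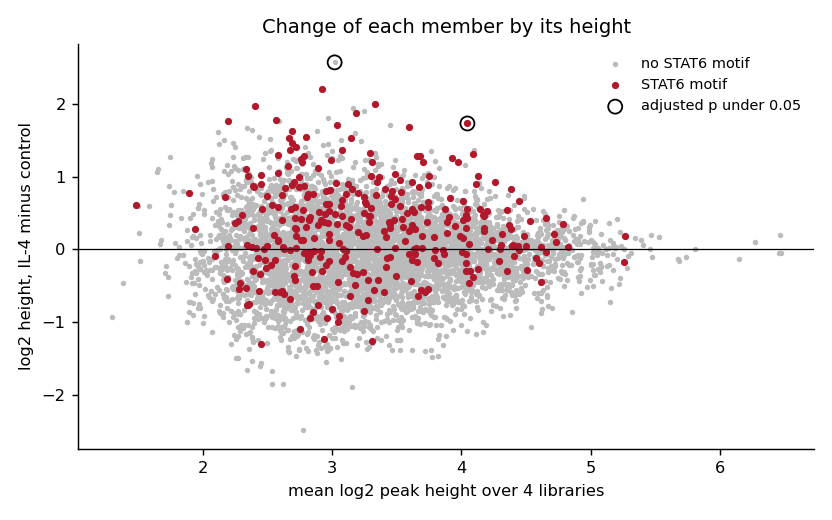
Log2 difference in peak height between IL-4 and control after quantile normalisation (y axis) against the mean log2 peak height over 4 libraries (x axis), with 1 point per member, red where the central 200 bp hold the STAT6 motif and ringed where the limma adjusted p was under 0.05. The 2 ringed points are Stxbp5 at 2.57 and Sptbn1 at 1.73, and red points are more often above 0 than below.

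Low members could show a change less precisely than high ones. The median SE of the log2 difference was 0.545 in the 1270 members with the lowest mean height and 0.310 in the 1270 with the highest. Across members the Pearson correlation of log2 heights was 0.706 for the control libraries, 0.680 for the IL-4 libraries and 0.629 to 0.655 between groups (n = 5078 regions of the same libraries, a description). The normalised differences reproduced less well. Those between the libraries numbered 1 and those between the libraries numbered 2 had a Pearson correlation of 0.134. Their signs were the same at 2769 of 5078 members.

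Differences were more often positive in members with the STAT6 motif than in members without it. The motif was found in the central 200 bp of 323 members, 6.36% of all (Wilson 95% confidence interval 5.72 to 7.07, for counting error only). The share was 6.09% in shared intronic regions within 50 kb, 6.83% in shared intergenic regions beyond 50 kb, 2.73% in shared promoters and 6.35% in all 60710 merged regions. Among the 323 members the median log2 difference was 0.29, and 221 of them (68.4%) were above 0, whereas the median was −0.05 in the 4755 members without the motif, of which 45.8% were above 0. With unadjusted limma p under 0.05, 46 members with the motif were higher and 5 lower (14.2% and 1.55%), against 149 and 271 of the members without it (3.13% and 5.70%). Of the 195 members in the higher set 23.6% held the motif, and of the 276 in the lower set 1.81%. The medians of the normalised difference were 0.24 between the libraries numbered 1 and 0.28 between the libraries numbered 2. No test is given for this relation, which earlier results of these data had shown in other regions of the same libraries, and the 1330 shared regions of any annotation with the motif had nearly the same median (0.28). Without 1 of the 4 libraries the median lay between 0.23 and 0.32, with 34 to 39 members higher and 2 to 8 lower.

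Single members with the motif are given next, and all but Arg1 were picked for a small unadjusted p. They do not show the spread behind the median. By deposited heights, both IL-4 libraries lay above both controls at 78 of the 323 members with the motif and below both at 55. At Zeb2, a zinc finger factor of the macrophage lineage, the region 13279 bp upstream had heights of 4.38 and 2.66 in control and 14.03 and 7.58 after IL-4 (log2 difference 1.78, limma adjusted p = 0.270). At Kynu, which encodes an enzyme of tryptophan breakdown, they were 10.62 and 4.95 against 23.37 and 17.35 (1.68), and at Rsl24d1, a ribosome assembly gene, 5.6 and 4.71 against 18.33 and 14.05 (1.88). The groups did not overlap at any of the 3. Pde4b, the gene of a cAMP phosphodiesterase, had motif-bearing members 18444 and 34427 bp downstream, with heights of 11.18 and 11.08 against 25.76 and 19.22 at the nearer (1.20) and 6.72 and 3.62 against 12.01 and 15.61 at the farther (1.71). Its other members had no motif and differences of 0.31 and −0.02. At Tnfrsf1b, the gene of a tumour necrosis factor receptor, the region 7700 bp upstream had 11.42 and 6.61 against 19.39 and 17.13 (1.28). The limma adjusted p of these regions lay between 0.151 and 0.281. By contrast, the Arg1 region 2948 bp upstream of the gene for arginase 1, a hallmark of alternative activation, held the motif with 25.16 and 19.46 in control and 22.81 and 22.29 after IL-4 (0.19, limma adjusted p = 0.912), so that the groups overlapped.

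Position of the motif was compared over whole regions and its form in the central 200 bp, as descriptions chosen with the values known. The median log2 difference was 0.36 in 80 members with a match within 25 bp of the region's centre, 0.20 in 84 with the nearest match at 25 to 50 bp, 0.19 in 168 at 50 to 100 bp and 0.03 in 192 at over 100 bp. It was −0.06 in the 4554 members without a match anywhere. In the central 200 bp, the 27 members whose match had C after TTC and G before GAA had a median of 0.40, as compared to 0.30 in 164 members with either base and 0.26 in 130 with neither. In 8 members with more than 1 match the median was 1.13, and 5 of them were in the higher set.

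Differences were more often negative in members with the AP-1 motif. It was found in 1279 members (25.2%, Wilson 95% confidence interval 24.0 to 26.4), compared to 28.3% of shared intergenic regions beyond 50 kb, 24.5% of shared intronic regions within 50 kb and 2.99% of shared promoters, and in 16.9% of all merged regions. The median log2 difference of these members was −0.13, against −0.002 without the motif. With unadjusted limma p under 0.05, 30 were higher and 95 lower (2.35% and 7.43%), against 165 and 181 of the members without it (4.34% and 4.76%). The 4638 shared regions of any annotation with the motif had a similar tilt, with 3.69% higher, 6.90% lower and a median of −0.09. Heights of the members with the motif were the highest of the motif groups in control, with medians of 13.8 and 11.3, and 10.6 and 8.53 after IL-4. Without control replicate 1 the counts were 53 higher and 66 lower, and without control replicate 2 they were 28 and 63. Without 1 library the median ran from −0.17 to −0.10. Where both motifs occurred together, in 81 members, the median was 0.13, with 7 higher and 1 lower, while it was 0.32 in the 242 members with the STAT6 motif alone and −0.15 in the 1198 with the AP-1 motif alone.

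At the Pigm region, 47047 bp downstream of a gene needed for glycosylphosphatidylinositol anchors, heights were 47.11 and 47.01 in control and 26.07 and 27.55 after IL-4 (log2 difference −0.73, limma adjusted p = 0.212). At Kif13a, a kinesin gene, they were 30.17 and 25.28 against 10.58 and 11.2 (−1.16), and at Dio1, the gene of a thyroid hormone deiodinase, 37.5 and 32.64 against 21.14 and 14.02 (−0.88). At Rxrg, which encodes a nuclear receptor of the retinoid X group, they were 18.78 and 27.88 against 4.94 and 11.56 (−1.40), and at 9130221F21Rik 26.95 and 29.75 against 10.98 and 11.85 (−1.13). The IL-4 libraries were below the controls at each of them, and the limma adjusted p lay between 0.212 and 0.249.

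**Figure D4:**
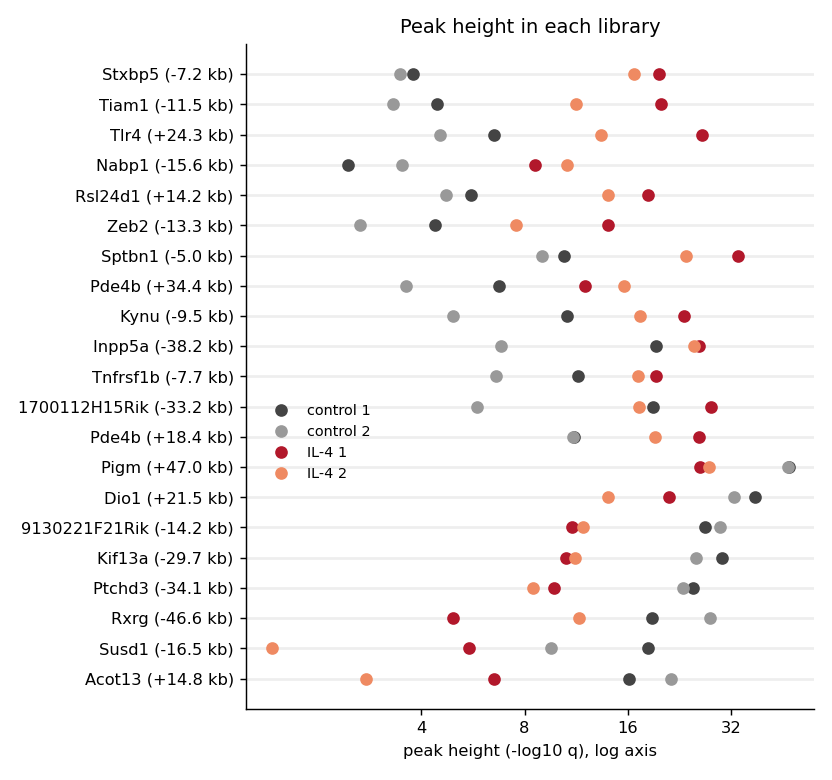
Peak height (x axis, −log10 q, log axis) in control replicates 1 and 2 (dark and light grey) and IL-4 replicates 1 and 2 (dark and light red) for the members whose sequences are printed and others also picked with their values known (y axis, assigned gene and distance to its TSS). From Stxbp5 down to the nearer Pde4b region the IL-4 points tend to lie to the right of the control points, with an overlap at 1700112H15Rik, and from Pigm to Acot13 they lie to the left.

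Other motifs gave smaller differences. The STAT motif with 3 bases between TTC and GAA (TTCNNNGAA) was found in 343 members (6.75%), with a median log2 difference of 0.08, 28 higher and 6 lower at unadjusted limma p under 0.05. The C/EBP motif (TTGCNNAA) was found in 688 (13.5%), with −0.11, 28 higher and 57 lower. The IRF motif (GAAANNGAAA) was in 186 (3.66%), with 0.06, 12 higher and 3 lower, and the PU.1 motif in 612 (12.1%), with −0.02 and 25 in each direction. The RUNX motif (TGTGGTT) was in 456 (8.98%), with −0.06, 28 higher and 36 lower, and the CTCF motif (CCNNNAGGNGGC) in 154 (3.03%), with 0.02, 4 higher and 5 lower. In all merged regions these motifs were found in 5.82% (STAT), 10.7% (C/EBP), 3.14% (IRF), 9.15% (PU.1), 7.22% (RUNX) and 4.11% (CTCF). Each was searched on both strands. The matches can overlap, 31 members had both STAT forms and 7 had STAT6 and PU.1 matches that shared bases. The 2057 members without any of these motifs had a median of −0.01, with 64 higher and 103 lower. A match in these letters does not show that a factor is bound.

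**Figure D5:**
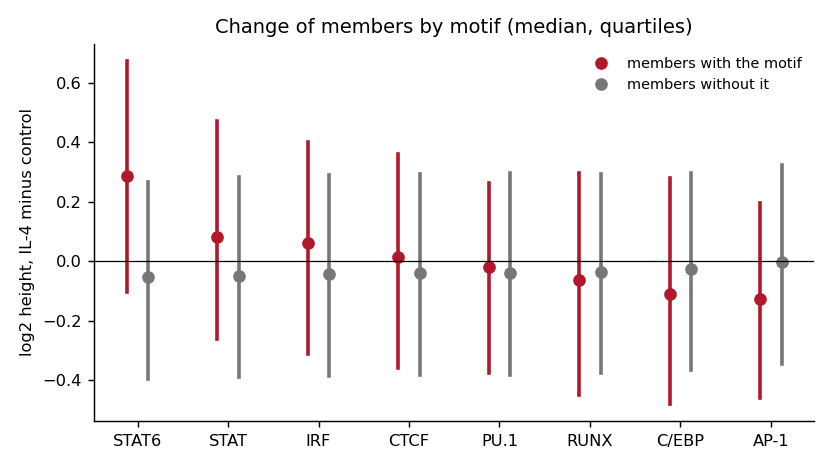
Log2 difference in peak height between IL-4 and control (y axis) for members with each motif (red) and without it (grey), where points are medians and lines run from the lower to the upper quartile. The STAT6 group lies highest with a median of 0.29 and the AP-1 group lowest with −0.13, and the quartiles of all groups overlap.

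Members were then grouped by lists of genes. None of the 7 lists had a member that passed the threshold, so counts at unadjusted limma p under 0.05 are given, beside 3.84% and 5.44% over all members. For 14 of 20 macrophage lineage factors there were 28 members with a median log2 difference of −0.06, 1 higher (Zeb2, above) and 1 lower. The lower member was near Ets2, 26581 bp downstream, with heights of 24.61 and 20.6 in control and 12.8 and 12.28 after IL-4 (−0.65). At Klf2 and Cebpa, which encode factors of monocyte and myeloid development, the highest members had differences of −0.07 and 0.12.

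For 17 of 30 genes of alternative activation there were 35 members with a median of −0.02, 2 higher and 1 lower, and 5 held the STAT6 motif. The higher member with the smallest p was 32332 bp upstream of Flt1, a receptor of vascular endothelial growth factor, with heights of 10.39 and 4.84 in control and 15.92 and 12.01 after IL-4 (1.20, limma adjusted p = 0.428). It held the STAT6 motif. The lower member was near Ptgs1, the gene of cyclooxygenase 1, with 13.62 and 12.25 against 4.83 and 3.64 (−1.42, limma adjusted p = 0.394), and held the AP-1 motif. At Edn1, the endothelin 1 gene, the highest member was 27480 bp downstream with 27.47 and 33.36 against 40.23 and 27.58 (0.26), and the groups overlapped.

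For 21 of 37 inflammatory response genes there were 41 members with a median of −0.10, 2 higher and 2 lower. The 2 higher members were both near Tlr4. Beside the region with the STAT6 motif above, the region 30866 bp upstream, which lacked the motif, had heights of 5.26 and 5.46 in control and 10.29 and 16.78 after IL-4 (1.505), and another member 29408 bp downstream had 17.44 and 7.94 against 14.95 and 8.1 (0.13). The 2 lower members were both near Tlr2, a receptor for bacterial lipoproteins. They lay 29452 bp downstream, with 14.19 and 8.78 in control and 5.28 and 2.49 after IL-4 (−1.40), and 43704 bp upstream, with 32.71 and 33.63 against 13.37 and 27.8 (−0.66). The groups were apart at both, but the second difference rested on IL-4 replicate 1, being −0.015 without that library and −1.27 without IL-4 replicate 2. The member 21546 bp upstream did not separate the groups (30.03 and 20.62 against 27.42 and 18.52).

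For 16 of 20 AP-1 and immediate-early genes there were 42 members with a median of −0.09, 0 higher and 4 lower. The lower one with the smallest p was near Fosb, a gene of an AP-1 subunit, with heights of 18.95 and 13.25 in control and 4.93 and 8.62 after IL-4 (−1.06, limma adjusted p = 0.535). This difference was −0.48 without IL-4 replicate 1 and −1.62 without IL-4 replicate 2. For 11 of 30 IL-4 signalling genes there were 18 members with a median of −0.17, 0 higher and 2 lower. One of these was 12775 bp upstream of Il4ra, the IL-4 receptor gene, with 13.33 and 6.98 against 5.1 and 2.79 (−1.11, limma adjusted p = 0.588), and the highest was near Socs1, a gene of an inhibitor of cytokine signalling, with 35.37 and 45.37 against 37.59 and 30.3 (−0.13). None of the 18 held the STAT6 motif in the central 200 bp. For 14 of 27 macrophage surface and lysosome genes there were 21 members with a median of 0.06, 0 higher and 2 lower, of which the Itgam region had 21.06 and 22.74 in control and 8.61 and 11.46 after IL-4 (−0.94). Of 22 genes of other blood and stromal lineages, Gata3, Epcam and Pecam1 had a member each. The Pecam1 region held the STAT6 motif, with 5.65 and 3.35 against 14.46 and 6.03 (1.36, limma adjusted p = 0.459).

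Enhancers near genes of the IL-4 and inflammatory responses were probed in the study by PCR for enhancer RNA or factor binding. Their 17 primer pairs were matched to the reference genome, and members within 1 kb were looked up. Regions at Edn1 (42620 bp upstream), Fos (5047 bp upstream), Abca1 (27452 bp upstream), Clec4d (9100 bp upstream), Tlr2 (both sites) and Fcgr1 were members under the names of these genes. The sites named for Cd14, Hbegf and Il18 also had a member within 1 kb, which the annotation assigned to the nearer TSS of E230025N22Rik, Pfdn1 and Sdhd. At Clec4d, a C-type lectin gene, heights were 19.12 and 20.65 in control and 17.17 and 16.97 after IL-4 (log2 difference −0.02). At the Cd14 site they were 23.85 and 12.77 against 13.27 and 7.89 (−0.55), at Abca1, the cholesterol exporter, 7.12 and 7.64 against 8.7 and 10.53 (0.60), and at the Edn1 site 20.15 and 14.18 against 19.36 and 7.03 (−0.31). At the Fos site they were 6.45 and 11.87 against 2.61 and 9.81 (−0.54). The STAT6 motif was in the central 200 bp of the Cd14 and Abca1 regions, whose differences had opposite signs. The Clec4d, Edn1 and Fos regions lacked it there. By deposited heights, which are not normalised, the groups overlapped at Cd14, Edn1 and Fos and were apart at Clec4d and Abca1. By this measure 31.7% of all members lay lower after IL-4 and 8.23% higher. After normalisation the limma adjusted p was 0.993 at Clec4d and 0.802 at Abca1. No member lay within 1 kb of the sites named for Klf4, Nlrp3, Il1b, Cxcl11 and Irak3. The smallest limma adjusted p at the member sites was 0.428, at the downstream Tlr2 region.

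Genes with many members were few. The largest numbers were 9 for Mir3110, 8 for Irf2bp2 and 7 for Ier5, an immediate-early gene. The 9 of Mir3110 lay at 2 places, 3 on chromosome 2 and 6 on chromosome 8, where they adjoined the 8 of Irf2bp2, a transcriptional co-regulator gene, so that 14 members lay within 219.8 kb on chromosome 8 (126547945 to 126767711). Heights over these 14 ran from 3.55 to 33.64, and their median log2 difference was 0.17. Another 7 genes had 6 members each (Actr3, Ccl2, Dusp6, Olfr1423, S1pr1, Tekt3 and Wdr26), with median differences from −0.34 at Ccl2, a chemokine gene, to −0.06 at Actr3, a gene of the actin-nucleating complex. At Dusp6, a phosphatase of the ERK pathway, the differences ran from −1.10 to −0.10, so that all 6 were negative, and 1 was in the lower set.

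Measured differences at neighbouring members were hardly correlated. Among 327 pairs of neighbouring members less than 2 kb apart the log2 differences had a Pearson correlation of −0.02, and 48.6% had the same sign. The correlation was 0.04 over 425 pairs at 5 to 10 kb. Likewise, over the 2271 members whose gene had a shared promoter, the difference of the member and that of the promoter had a Pearson correlation of 0.01. These are descriptions across regions of the same libraries, where the median SE of a single difference was 0.310 even among the 1270 highest members. Differences of the same member between libraries numbered 1 and numbered 2 correlated at only 0.134. Low correlations here therefore cannot show that neighbouring regions are unrelated. Members with and without a shared promoter of their gene had medians of −0.03 and −0.05.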

How the data were processed

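ATAC-seq peak lists of 4 libraries, 2 control and 2 IL-4, were used, grouped by the labels. The submitters' processing notes name BWA 0.7.10, SAMtools 0.1.19, MACS2 2.0.10, HOMER 4.2 and mm10. The authors called peaks in each library on its own, without pooling, removed blacklisted regions and annotated the peaks. The deposited score is in no stated unit and was read as −log10 of the q-value, since it ended near −log10 of 0.05. The methods name a q of 0.01 (a height of 2), but 133 to 603 peaks per library lay under it. Deposited distances and annotations were taken as given. The files hold no reads, so depth is unknown and precision rests on the spread of 2 libraries per group. DiffBind, used by the authors, could not be run.

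Overlapping peaks (1 bp or more, chromosomes 1 to 19, X and Y) were merged (checked with bedtools 2.31.1). A region took the highest height per library and the annotation, distance and gene of its highest peak. Members and gene lists were chosen with earlier results of these data known. Log2 heights of all 25442 shared regions went through quantile normalisation and limma 3.58.1 under R 4.3.3 (eBayes with a trend, Benjamini-Hochberg, threshold 0.05), after a test on simulated data. Medians per library were compared by exact permutation tests (Python 3.11.15). Motifs were searched in 200 bp about the region's centre in GRCm38.p6. Alternatives were median centring, a replicate block, no trend, log2(height + 1), leaving out each library, peaks of height 2 or 5 and more, peaks covering 25% of a region, merging within 100 bp and motif search in whole regions. Named were members past the threshold with or without the block, the 6 with the largest differences per direction among non-overlapping ones with unadjusted p under 0.05, the 8 highest, those within 1 kb of a primer site, the 3 highest and those with the smallest p of each list, 3 on either side of 50 kb and the genes with most members. Members whose sequence is printed were picked after their values were seen, by no fixed rule, mainly from members with a STAT6 or AP-1 motif and a low unadjusted p, as were the genes with several members moving one way. A few results are not reported here.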

Additional observations from a re-analysis of the deposited data

How the results depend on the processing

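The number of higher members was 2 under median centring, log2(height + 1), peaks of height 2 or more, 25% coverage and merging within 100 bp. It was 1 with peaks of height 5 or more, where the Stxbp5 region was no longer tested, and 0 without a variance trend. Leaving out 1 library gave 0 to 5, namely 0 without either IL-4 library. No member was lower in any of these fits. Replicate numbers 1 and 2 occur in both groups. Deviations from the group mean in libraries of the same number had a Pearson's r of 0.0068 over 25442 regions. With 2 pairs, and after normalisation, this cannot show whether libraries of the same number were prepared together. With the replicate block 4 members were higher, Sptbn1 and Stxbp5 (limma adjusted p = 0.00404 for both), Tlr4 (limma adjusted p = 0.0306) and Tiam1 (limma adjusted p = 0.0436), and 1 was lower, 3110002H16Rik (limma adjusted p = 0.0108). The share of members with the STAT6 motif was 10.3% when whole regions were searched and stayed within the confidence interval otherwise. The median log2 difference of members with the motif was 0.18 then, 0.24 with peaks of height 5 or more and 0.23 to 0.32 with 1 library left out. The differences in median height between IL-4 and control and between members and the other classes kept their sign under every alternative. Of 78 named or printed regions 54 kept the sign of their difference under every alternative in which they were still tested. Among these 54 were the 13 called or with the largest differences. Regions with low heights dropped out when low peaks were removed. The regions near 3110002H16Rik, Susd1 and Icosl were thus tested in 9 alternatives, and the Sptbn1 region in 11. The replicate block left each difference as it was. Median centring moved the split at unadjusted p from 195 higher and 276 lower to 229 and 239. What depth limits cannot be measured here, because no counts were given, and low peaks had the larger errors. The causes of these shifts were not tested.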

Other observations

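Some genes had several members in the higher or the lower set at unadjusted limma p under 0.05, a pattern seen after the values were known and not tested. At Tmem2, which encodes a hyaluronidase of the cell surface, neighbouring members about 40 kb upstream had heights of 9.23 and 10.13 in control and 13.34 and 17.28 after IL-4 (log2 difference 0.88), and 5.73 and 3.46 against 10.95 and 10.86 (1.54), and the second held the STAT6 motif. At Kcnh8, a potassium channel gene, members 1542 and 42602 bp upstream had 3.17 and 1.63 against 5.05 and 3.73 (1.10) and 4.13 and 4.95 against 12.19 and 6.29 (1.19). At Rhob, a GTPase gene, members moved both ways, with 4.49 and 2.36 against 7.66 and 9.13 (1.64) at 11219 bp upstream, 19.5 and 20.11 against 10.04 and 6.83 (−1.03) at 9914 bp upstream and 30.11 and 27.02 against 22.48 and 12.23 (−0.61) at 49206 bp downstream. No limma adjusted p of these regions was under 0.363.

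Counts for some repeat families are given as a description, beside 3.84% of all members higher and 5.44% lower at unadjusted limma p under 0.05. The families are a selection, not made by a rule set beforehand, and no difference between families was tested. The 36 members in B2 SINE elements had a median log2 difference of 0.20, with 3 higher, the Sptbn1 region among them, and 0 lower. The 26 in ERV1 elements had 0.10, with 5 higher and 0 lower. The 154 in L1 elements had −0.08, with 4 higher and 11 lower, and the 119 in ERVK elements −0.04, with 5 and 3. The 87 in ERVL elements had −0.08, with 2 higher and 7 lower, and the 21 in hAT-Charlie elements 0.14, with 0 and 3. The 288 in ERVL-MaLR elements had −0.04, with 7 higher and 21 lower, and the 33 in L2 elements had −0.19, with 0 higher and 2 lower. The 23 members in tRNA genes had 0.16, with 3 higher and 0 lower, and the 315 CpG islands had 0.13, with 9 higher and 7 lower.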
